A study of Mus musculus with 33 samples.

Results

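Endothelial cells (EC) of mouse bone that had been marked through the apelin gene, called Apln+ EC, were compared with EC of the shaft of the femur, called diaphysis EC, by RNA sequencing of sorted cells. The comparison used 6 of the 33 libraries of the series, 3 per group, chosen by their labels, and 11889 of 38899 genes, those with at least 1 FPKM (read counts corrected for transcript length and sequencing depth) in at least 3 of the 6 libraries. Apln+ EC were GFP+ cells of whole bone, femur and tibia, of tamoxifen-treated Apln-CreERT2 R26-mTmG mice, in which a drug-dependent recombinase made from the Apln locus switches on GFP for good in the cells that express it and in their progeny. Diaphysis EC were GFP+ cells of the femur diaphysis of untreated mice labelled Cdh5-mTnG, Cdh5 being the gene of VE-cadherin, the adhesion protein of endothelial junctions. All mice were labelled C57BL/6 and 8-12 weeks old, and in both groups bones were crushed, digested with collagenase and sorted by FACS, with cDNA made from small amounts of RNA. The Cre allele, the reporter, tamoxifen, the tibia and the region of bone all differed with the group, so their contributions cannot be told apart. The labels used here give no sex, and sex-linked genes also differed between the groups, as described at the end. The labels do not say whether replicates came from separate mice, so p-values measure the spread between these libraries, which may be technical.

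The vessels of long bones are of several kinds. Arterioles and the straight capillaries near the growth plate deliver blood and guide bone formation, whereas the marrow of the shaft is filled by sinusoids, wide vessels with a thin, interrupted basement membrane. Sinusoidal EC take up waste through scavenger receptors such as stabilins and let blood cells pass with the help of selectins, Vcam1 and chemokines. Apelin is a secreted peptide that acts on the receptor Aplnr and is best known from the tip cells of sprouting vessels.

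One library stood apart within its group. Throughout, 3 values of a group stand for replicates 1, 2 and 3. Of the summed FPKM of a library, the 20 pan-endothelial genes, which mark EC of any vessel, took 0.139, 0.651 and 0.645% in Apln+ EC, against 0.270, 0.360 and 0.392% in diaphysis EC. The 18 neutrophil genes took 24.6, 11.8 and 8.45% in Apln+ EC, against 10.5, 8.90 and 9.73% in diaphysis EC. Apln+ EC replicate 1 was thus the lowest library for endothelial RNA and the highest for neutrophil RNA, and the other 2 Apln+ EC libraries had the highest endothelial shares of all 6. The 14 erythroid genes took 7.30, 6.12 and 12.8% in Apln+ EC, against 7.29, 6.17 and 6.89% in diaphysis EC, so that blood RNA was abundant in every library. Cdh5 was detected in all of them, at 14.2, 52.1 and 45.0 FPKM in Apln+ EC, against 23.0, 25.9 and 34.05 FPKM in diaphysis EC. On the log2 scale, Apln+ EC replicates 2 and 3 correlated at 0.980 across genes, the diaphysis EC libraries at 0.974 to 0.978 with each other, and Apln+ EC replicate 1 at 0.874 to 0.902 with the other 5; genes are not independent replicates. Ptprc, the leukocyte surface protein CD45, had 103, 25.0 and 26.8 FPKM in Apln+ EC, against 61.3, 60.1 and 40.2 FPKM in diaphysis EC, so a blood marker that EC lack was also well above 0 in both groups. Depth was similar, at 8747006 to 10056111 recovered reads in Apln+ EC, against 9409051 to 10744113 in diaphysis EC.

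**Figure D1:**
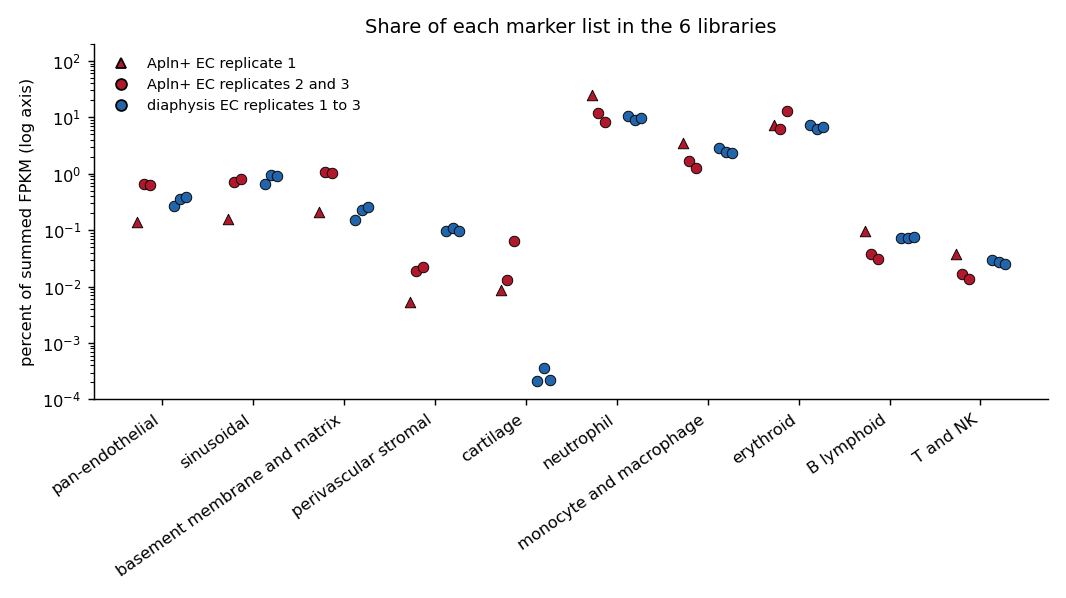
Percent of the summed FPKM of a library, on a log axis, taken by 10 marker lists, with Apln+ EC in red (replicate 1 as a triangle) left of diaphysis EC in blue, each point a library. Apln+ EC replicate 1 is lowest for pan-endothelial genes at 0.139% and highest for neutrophil genes at 24.6%, and the cartilage list separates the groups by more than any other list shown.

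With all 6 libraries, 338 genes were higher in Apln+ EC (2.84% of those tested) and 552 were lower (4.64%) at an adjusted p below 0.05, by limma on log2(FPKM + 1) with Benjamini-Hochberg adjustment over all 11889 genes. Of these, 277 of the higher and 451 of the lower genes differed by over 2-fold on that scale, which understates the change of genes with low levels. Without Apln+ EC replicate 1, 2034 genes were higher (17.1%) and 1955 lower (16.4%), and all 890 genes called with 6 libraries were called again in the same direction. List counts below are to be read beside the shares of all genes in the same setting. With Apln+ EC replicate 1 kept, 155 genes were higher and 248 lower without Apln+ EC replicate 2, and 180 higher and 404 lower without Apln+ EC replicate 3. Without diaphysis EC replicate 1, 2 or 3, 112, 104 or 105 genes were higher and 230, 208 or 188 lower. The values of the groups did not overlap in 3301 genes (27.8%). The median log2 difference over all genes tested was 0.04 with 6 libraries and 0.01 without Apln+ EC replicate 1. Since the libraries differed in endothelial RNA, each was also divided by the level of its pan-endothelial genes (their mean log2(FPKM + 1)). This brings those genes close to equal across libraries. On that scale 151 genes were higher (1.27%) and 306 lower (2.57%), and the median over all genes moved to -0.32. With that scaling and without Apln+ EC replicate 1, 465 genes were higher (3.91%) and 8623 lower (72.5%), so a lower call is the common case there. Outside the cartilage and bone lists, at most 2 members of a list passed the filter on level through the libraries of 1 group alone, which fixes their direction. Of the calls, 38.0% were higher with FPKM as deposited, 27.7% after rescaling to TPM and 26.7% with limma voom on recovered reads.

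**Figure D2:**
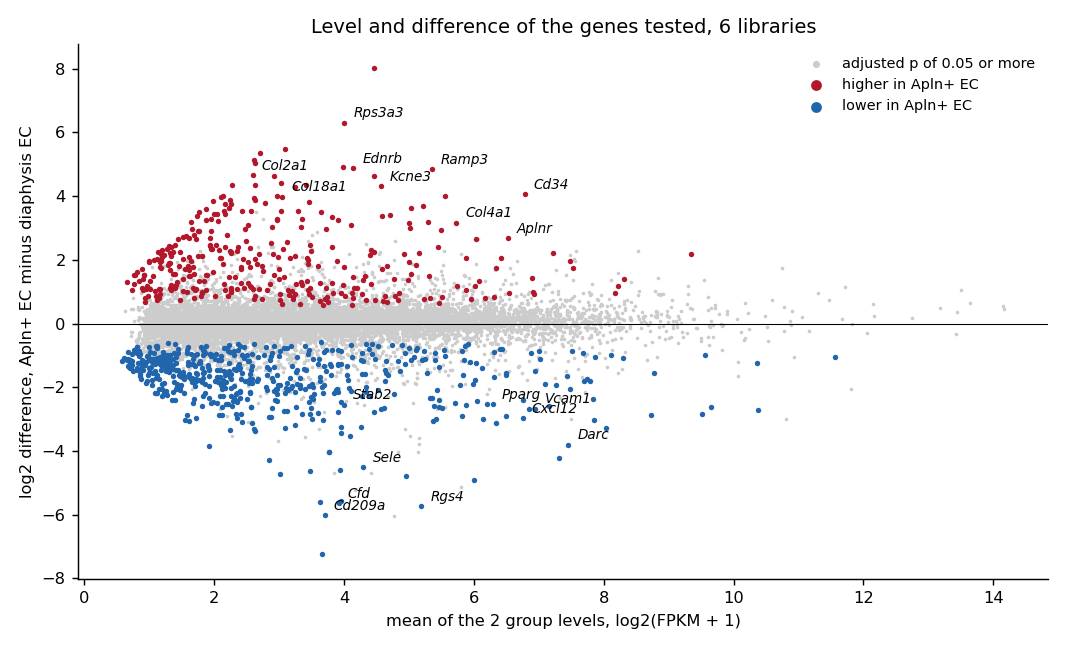
Each point is 1 of the 11889 genes tested, with the mean of both groups' levels on the horizontal axis, in log2(FPKM + 1), and the log2 difference of Apln+ EC minus diaphysis EC on the vertical axis, over 6 libraries. Red genes were higher in Apln+ EC (338) and blue genes lower (552) at an adjusted p below 0.05; Ednrb lies at 4.88 and Cd209a at -6.01.

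The receptor of apelin was higher in Apln+ EC, and apelin itself was barely detected in either group. Aplnr (chr2:85136225-85139923, plus strand, GRCm38) had 101, 306 and 326 FPKM in Apln+ EC, against 24.5, 39.3 and 36.0 FPKM in diaphysis EC. Every Apln+ EC library lay above every diaphysis EC library, and the mean was 7.34-fold higher in Apln+ EC (log2 difference 2.69 ± 0.47 SE, adjusted p = 0.022), and without Apln+ EC replicate 1 the difference was 3.23 ± 0.20 SE, adjusted p = 7.8e-05. Apln (chrX:48025146-48034853, minus strand) had 0.419, 0.930 and 1.24 FPKM in Apln+ EC, against 0.855, 0.501 and 1.004 FPKM in diaphysis EC. These levels overlapped, and Apln did not pass the filter and was not tested. Esm1, a proteoglycan gene that marks tip cells, had 12.0, 52.3 and 32.5 FPKM in Apln+ EC, against 31.4, 28.9 and 30.1 FPKM in diaphysis EC. The groups overlapped and Esm1 did not pass the test (log2 difference -0.13 ± 0.49 SE, adjusted p = 0.92). Kdr, the main VEGF receptor, had 23.2, 70.5 and 65.2 FPKM in Apln+ EC, against 41.8, 55.2 and 62.1 FPKM in diaphysis EC (log2 difference -0.14 ± 0.43 SE, adjusted p = 0.9). Emcn, the sialomucin of capillaries and veins, had 53.4, 210.1 and 206 FPKM in Apln+ EC, against 42.7, 59.1 and 67.0 FPKM in diaphysis EC (log2 difference 1.25 ± 0.54 SE, adjusted p = 0.26). For both, Apln+ EC replicate 1 was far below the other 2 Apln+ EC libraries. Without it Emcn passed the test (log2 difference 1.89 ± 0.19 SE, adjusted p = 0.00055) and Kdr did not (log2 difference 0.37 ± 0.18 SE, adjusted p = 0.16). Apln had means of 21.9 FPKM in Esm1+ EC and 10.8 FPKM in untreated bone EC of other tables of the series, which were normalized separately and not tested against this one.

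Among the 15 largest increases that followed the rule for named genes, the second and the third were in receptor genes for vasoactive peptides. Ednrb, the endothelin receptor B through which EC clear endothelin and release nitric oxide, lies at chr14:103814625-103844402, minus strand, and had 36.3, 138 and 131 FPKM in Apln+ EC, against 1.77, 1.63 and 2.72 FPKM in diaphysis EC. The 3 Apln+ EC libraries lay far above the diaphysis EC libraries, and the mean was 49.97-fold higher in Apln+ EC (log2 difference 4.88 ± 0.52 SE, adjusted p = 0.0035). Ramp3, which pairs with the calcitonin receptor-like receptor to bind adrenomedullin, had 73.0, 339.6 and 304 FPKM in Apln+ EC, against 6.30, 4.83 and 6.67 FPKM in diaphysis EC. The predicted gene Gm11978 overlaps it, and the library kit did not mark strand. It was higher in every Apln+ EC library, and the mean was 40.2-fold higher (log2 difference 4.84 ± 0.58 SE, adjusted p = 0.0054). Nos3, the endothelial nitric oxide synthase, had 12.8, 37.2 and 38.3 FPKM in Apln+ EC, against 5.06, 4.98 and 8.50 FPKM in diaphysis EC and was higher in Apln+ EC (log2 difference 1.97 ± 0.44 SE, adjusted p = 0.048). Of 11 tested genes of the endothelin, adrenomedullin and nitric oxide list, these 3 were higher and 0 lower, with a median log2 difference of 0.52. Without Apln+ EC replicate 1, 7 were higher, and without 1 of the other libraries 2 were. The receptor that Ramp3 pairs with, Calcrl, and the endothelin converting enzyme Ece1 did not pass with 6 libraries, both named after their values were seen. Calcrl had 16.9, 29.1 and 28.3 FPKM in Apln+ EC, against 14.4, 19.0 and 16.4 FPKM in diaphysis EC. Ece1 had 12.2, 31.1 and 35.8 FPKM in Apln+ EC, against 17.8, 21.8 and 25.1 FPKM in diaphysis EC. In both genes the groups overlapped. With pan-endothelial scaling 2 of the 11 were called, and the median was 0.08, or -0.21 when Apln+ EC replicate 1 was also left out. Over all genes tested those medians were -0.32 and -0.84.

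Of 17 tested genes of the tip cell and angiogenic list, 5 were higher in Apln+ EC and 0 lower (median log2 difference 0.54). Kcne3, a potassium channel subunit enriched in tip cells, had 35.6, 185 and 126 FPKM in Apln+ EC, against 3.86, 3.11 and 4.44 FPKM in diaphysis EC. The groups did not overlap, and the mean was 30.4-fold higher in Apln+ EC (log2 difference 4.32 ± 0.58 SE, adjusted p = 0.0082). Cd34, a sialomucin of capillary EC and of blood progenitors, had 182, 641 and 615 FPKM in Apln+ EC, against 23.6, 20.6 and 28.6 FPKM in diaphysis EC. It separated the groups without overlap, and the mean was 19.8-fold higher in Apln+ EC (log2 difference 4.06 ± 0.49 SE, adjusted p = 0.0059). Igfbp3, which binds insulin-like growth factors, had 69.5, 244 and 207 FPKM in Apln+ EC, against 18.6, 22.4 and 30.1 FPKM in diaphysis EC. Mcam, an adhesion molecule of EC and pericytes, had 46.0, 146 and 121 FPKM in Apln+ EC, against 13.3, 17.3 and 20.6 FPKM in diaphysis EC. Both were higher in every Apln+ EC library, Igfbp3 with a log2 difference of 2.66 ± 0.48 SE with an adjusted p of 0.025, and Mcam with a log2 difference of 2.40 ± 0.44 SE with an adjusted p of 0.025. The fifth was Nid2, described with the basement membrane. The list count was 13 without Apln+ EC replicate 1 and 2 to 3 without 1 of the other libraries. With pan-endothelial scaling 5 were called, and the list median was 0.10, or -0.16 without Apln+ EC replicate 1. Those medians over all genes tested were -0.32 and -0.84.

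Further genes among the 15 largest increases carried growth factor and transport functions. Ptn, the heparin-binding growth factor pleiotrophin, had 13.4, 71.0 and 48.9 FPKM in Apln+ EC, against 1.49, 1.08 and 0.368 FPKM in diaphysis EC. Rbp7, a retinoid-binding protein of capillary EC, had 47.8, 286 and 285 FPKM in Apln+ EC, against 10.2, 5.004 and 13.5 FPKM in diaphysis EC. Fxyd6, a regulator of the sodium pump, had 8.69, 54.3 and 62.0 FPKM in Apln+ EC, against 1.16, 0.245 and 0.311 FPKM in diaphysis EC. For all 3 genes Apln+ EC replicate 1 was the lowest of its group and still above every diaphysis EC library. Col18a1, Col2a1 and Bglap, also among the 15, are described with the basement membrane, cartilage and bone genes. The others were Cd1d2 and the pseudogenes Rps3a3, Rps13-ps1, Rpl34-ps1 and Hist1h2al, for which reads may come from near-identical genes, so their values are uncertain. Cd1d2, Rps3a3 and Hist1h2al passed the filter on level through the Apln+ EC libraries alone, which fixed their direction. Rps3a3 (chr13:108670603-108671397, plus strand, inside the gene Pde4d) had the largest difference, with 122.7, 155 and 147 FPKM in Apln+ EC, against 0.721, 0.916 and 0.756 FPKM in diaphysis EC (log2 difference 6.30 ± 0.15 SE, adjusted p = 2.3e-05). The log2 differences were 4.28 ± 0.60 SE for Ptn (adjusted p = 0.01), 4.001 ± 0.74 SE for Rbp7 (adjusted p = 0.027) and 4.41 ± 0.72 SE for Fxyd6 (adjusted p = 0.017).

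Part of the basement membrane genes were higher in Apln+ EC. Of 17 tested genes of the basement membrane and matrix list, 7 were higher and 0 lower, with a median log2 difference of 1.74 against 0.04 over all genes. Col18a1, the collagen of vessel basement membranes from which endostatin is cut, lies at chr10:77052178-77166548, minus strand and had 14.2, 46.1 and 40.3 FPKM in Apln+ EC, against 0.988, 1.01 and 0.900 FPKM in diaphysis EC. Nid2, a nidogen that links laminin to collagen IV, had 18.4, 59.8 and 49.0 FPKM in Apln+ EC, against 1.78, 1.76 and 1.79 FPKM in diaphysis EC. In both genes the diaphysis EC libraries were within a narrow range and all Apln+ EC libraries were above the diaphysis EC libraries. The means were 34.7-fold higher in Apln+ EC for Col18a1 (log2 difference 3.98 ± 0.42 SE, adjusted p = 0.0036) and 23.9-fold higher for Nid2 (log2 difference 3.81 ± 0.42 SE, adjusted p = 0.004). Col4a1 and Col4a2, neighbouring genes on chromosome 8 that encode both chains of the main collagen IV, overlap at their starts and were both higher. Col4a1 had 59.4, 236 and 213 FPKM in Apln+ EC, against 11.8, 14.6 and 20.1 FPKM in diaphysis EC. Col4a2 had 44.0, 188 and 166 FPKM in Apln+ EC, against 11.1, 11.8 and 19.6 FPKM in diaphysis EC. Every Apln+ EC library was above the diaphysis EC libraries (Col4a1 log2 difference 3.17 ± 0.54 SE, adjusted p = 0.019, and Col4a2 log2 difference 2.93 ± 0.57 SE, adjusted p = 0.03). The laminin chain gene Lamb1 had 4.59, 15.8 and 14.1 FPKM in Apln+ EC, against 1.13, 1.02 and 1.25 FPKM in diaphysis EC (log2 difference 2.40 ± 0.42 SE, adjusted p = 0.022). The laminin chain gene Lama4 had 3.84, 14.4 and 12.0 FPKM in Apln+ EC, against 1.04, 0.777 and 1.46 FPKM in diaphysis EC (log2 difference 2.25 ± 0.44 SE, adjusted p = 0.032). These too separated the groups. The seventh member was Col15a1, named after its values were seen, a collagen related to Col18a1, with 1.66, 5.86 and 4.52 FPKM in Apln+ EC, against 0.244, 0.221 and 0.249 FPKM in diaphysis EC. Col15a1 passed the filter through the Apln+ EC libraries alone, so its direction was fixed by that filter. The list count was 13 higher and 2 lower without Apln+ EC replicate 1 and 2 higher without any 1 of the other libraries. With pan-endothelial scaling 7 were higher and 1 lower, and the median was 1.28.

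**Figure D3:**
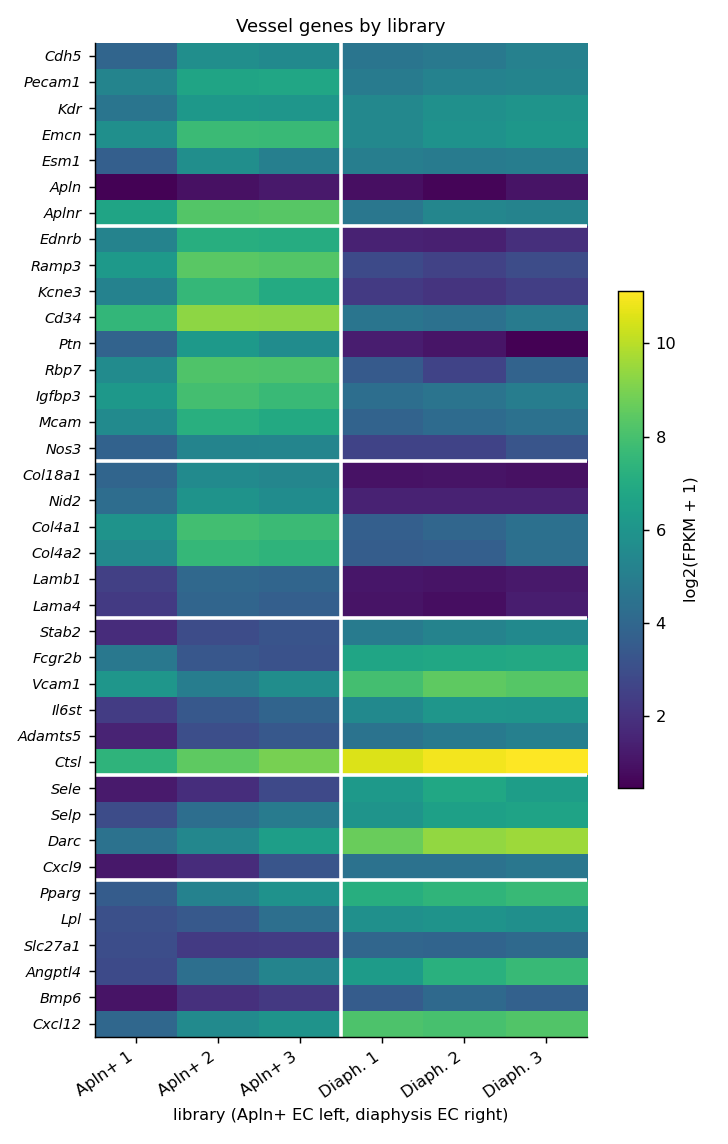
Level of 38 vessel-related genes, as log2(FPKM + 1) in colour, in the 3 Apln+ EC libraries (left) and the 3 diaphysis EC libraries (right), grouped by role from top to bottom as identity genes, receptors and growth factors, basement membrane, sinusoidal genes, adhesion genes, and lipid and niche genes. The receptor and basement membrane blocks are brighter in Apln+ EC and the lower blocks in diaphysis EC. In Cd34 Apln+ EC replicate 1 is dimmer than the other libraries of its group, at 182 against 641 and 615 FPKM in Cd34.

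General endothelial, arterial and junction genes were called mainly when Apln+ EC replicate 1 was left out. With 6 libraries 0 of 20 pan-endothelial genes passed, and without it 13 were higher and 0 lower, with a median log2 difference of 0.80. Pecam1, the junction protein CD31, had 38.0, 102 and 107 FPKM in Apln+ EC, against 28.7, 35.2 and 37.3 FPKM in diaphysis EC. The groups were apart, Pecam1 did not pass with 6 libraries (log2 difference 1.13 ± 0.40 SE, adjusted p = 0.18), and without that library it was higher in Apln+ EC (log2 difference 1.61 ± 0.14 SE, adjusted p = 0.00028). Of 18 tested arterial genes, 1 was higher with 6 libraries and 12 without Apln+ EC replicate 1. The 1 was Efnb2, the ephrin ligand that marks arterial EC, with 3.75, 10.7 and 8.47 FPKM in Apln+ EC, against 0.981, 1.24 and 1.46 FPKM in diaphysis EC (log2 difference 1.86 ± 0.34 SE, adjusted p = 0.026), named after its values were seen. Gja4, the connexin 37 gene, had 13.6, 78.1 and 66.4 FPKM in Apln+ EC, against 7.37, 4.58 and 8.00 FPKM in diaphysis EC. Its groups did not overlap but it did not pass with 6 libraries (log2 difference 2.51 ± 0.64 SE, adjusted p = 0.072), and without Apln+ EC replicate 1 it did (log2 difference 3.29 ± 0.22 SE, adjusted p = 9.7e-05). Of 18 tested junction genes, 1 was higher, Gjc1 (connexin 45), with 3.01, 8.72 and 8.19 FPKM in Apln+ EC, against 0.5999, 0.806 and 0.483 FPKM in diaphysis EC, and 14 were without Apln+ EC replicate 1. Gjc1 passed the filter through the Apln+ EC libraries alone, so its direction was fixed by that filter. With pan-endothelial scaling of 6 libraries 0 pan-endothelial genes were called, 2 arterial genes were higher and 1 lower, and 2 junction genes were higher. That scaling without Apln+ EC replicate 1 gave 8 higher and 6 lower pan-endothelial, 8 higher and 5 lower arterial, and 5 higher and 3 lower junction genes. Of all genes tested, 3.91% were higher and 72.5% lower in that setting. With 6 libraries the medians under the scaling were -0.24 for the pan-endothelial, 0.43 for the arterial and 0.22 for the junction list. The median over all genes tested was -0.32 there.

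Lists of angiogenic signalling gave few calls with 6 libraries. Among 9 tested VEGF ligands and receptors, Pgf, placental growth factor, was the 1 higher gene, with 8.00, 16.7 and 22.1 FPKM in Apln+ EC, against 3.27, 1.44 and 3.58 FPKM in diaphysis EC (log2 difference 2.09 ± 0.41 SE, adjusted p = 0.032). Its receptor Flt1 had 17.5, 62.6 and 54.6 FPKM in Apln+ EC, against 8.69, 9.70 and 14.0 FPKM in diaphysis EC, without overlap, and did not pass with 6 libraries (log2 difference 1.80 ± 0.48 SE, adjusted p = 0.083). Among 15 tested Notch pathway genes, the ligand Jag2 was the 1 higher gene, with 4.65, 11.7 and 10.6 FPKM in Apln+ EC, against 1.69, 1.64 and 2.27 FPKM in diaphysis EC (log2 difference 1.72 ± 0.33 SE, adjusted p = 0.029). The tip cell ligand Dll4 had 9.90, 28.6 and 29.7 FPKM in Apln+ EC, against 19.4, 22.2 and 21.8 FPKM in diaphysis EC, with overlap (log2 difference -0.04 ± 0.41 SE, adjusted p = 0.97). Of 5 tested angiopoietin and Tie genes 1 was lower, Angptl4, an inhibitor of lipoprotein lipase, with 6.30, 19.1 and 37.6 FPKM in Apln+ EC, against 78.9, 151 and 196 FPKM in diaphysis EC (log2 difference -2.91 ± 0.64 SE, adjusted p = 0.045). The receptor gene Tek had 20.5, 55.1 and 71.5 FPKM in Apln+ EC, against 31.6, 42.7 and 41.0 FPKM in diaphysis EC, with overlap, and did not pass (log2 difference 0.18 ± 0.45 SE, adjusted p = 0.87). Its ligand Angpt1 had 1.30, 0.688 and 0.267 FPKM in Apln+ EC, against 2.189, 2.80 and 1.94 FPKM in diaphysis EC, without overlap, and did not pass (log2 difference -0.95 ± 0.25 SE, adjusted p = 0.076). Leaving out Apln+ EC replicate 1, 4 VEGF genes were higher and 1 lower, 7 Notch genes were higher and 3 lower, and 3 angiopoietin and Tie genes were higher and 2 lower. In that setting 17.1% of all genes tested were higher and 16.4% lower. Of 26 tested endothelial transcription factors, 0 passed with 6 libraries. With Apln+ EC replicate 1 left out, 8 were higher and 5 lower, beside 17.1% and 16.4% of all genes. Sox18, a factor of vessel and lymphatic development, had 102, 415 and 399.8 FPKM in Apln+ EC, against 151, 156 and 211 FPKM in diaphysis EC, and it was higher without that library (log2 difference 1.25 ± 0.17 SE, adjusted p = 0.0019). The genes Efnb2, Gja4, Gjc1, Pgf, Flt1, Jag2, Dll4, Tek and Angpt1 were outside the rule for named genes.

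Part of the sinusoidal genes were lower in Apln+ EC. Of 14 tested, 7 were lower and 0 higher, with a median log2 difference of -1.76. Stab2, the stabilin that clears hyaluronan in sinusoids, lies at chr10:86841198-87008025, minus strand and had 2.49, 6.71 and 8.36 FPKM in Apln+ EC, against 29.0, 36.1 and 44.2 FPKM in diaphysis EC. All 3 Apln+ EC libraries lay below all diaphysis EC libraries, and the mean was 6.22-fold lower in Apln+ EC (log2 difference -2.55 ± 0.39 SE, adjusted p = 0.014). Vcam1, the adhesion molecule that holds blood progenitors and lets leukocytes pass, had 66.2, 30.7 and 49.7 FPKM in Apln+ EC, against 243, 357 and 315 FPKM in diaphysis EC. Apln+ EC replicate 1 was here the highest of its group and still below every diaphysis EC library (log2 difference -2.67 ± 0.31 SE, adjusted p = 0.0047). Fcgr2b, an Fc receptor that takes up immune complexes, had 25.6, 9.19 and 7.85 FPKM in Apln+ EC, against 103, 111 and 119 FPKM in diaphysis EC (log2 difference -3.07 ± 0.41 SE, adjusted p = 0.0085). Within Apln+ EC, Fcgr2b was highest in replicate 1, the library with most neutrophil RNA, and the part of blood RNA in it was not tested. Il6st, the shared signalling subunit of interleukin 6 family receptors, had 4.14, 9.46 and 14.0 FPKM in Apln+ EC, against 45.0, 65.1 and 63.9 FPKM in diaphysis EC (log2 difference -2.65 ± 0.40 SE, adjusted p = 0.013). Ctsl, the lysosomal protease cathepsin L, had 165, 351 and 494 FPKM in Apln+ EC, against 1489, 1985 and 2229 FPKM in diaphysis EC (log2 difference -2.61 ± 0.42 SE, adjusted p = 0.016). In each of these genes the groups were apart. Adamts5, a protease that cleaves proteoglycans, was lower too, with 1.84, 7.09 and 9.47 FPKM in Apln+ EC, against 22.0, 27.8 and 33.2 FPKM in diaphysis EC (log2 difference -2.19 ± 0.49 SE, adjusted p = 0.047). Mrc1, the mannose receptor, was the seventh, with 7.36, 15.5 and 19.4 FPKM in Apln+ EC, against 38.1, 45.9 and 43.6 FPKM in diaphysis EC. The direction did not hold for all members. Plvap, which forms the diaphragms of fenestrae, had 691, 3052 and 3553 FPKM in Apln+ EC, against 1173, 1558 and 1783 FPKM in diaphysis EC (log2 difference 0.40 ± 0.63 SE, adjusted p = 0.79), and without Apln+ EC replicate 1 it was higher in Apln+ EC (log2 difference 1.15 ± 0.22 SE, adjusted p = 0.0076). Stab1 had 5.40, 22.2 and 22.1 FPKM in Apln+ EC, against 13.9, 15.2 and 22.6 FPKM in diaphysis EC and did not pass (log2 difference -0.24 ± 0.53 SE, adjusted p = 0.86). Without Apln+ EC replicate 1, 8 members were lower and 2 higher, and without 1 of the other libraries 1 to 7 were lower. With pan-endothelial scaling 6 were lower, and without Apln+ EC replicate 1 that scaling gave 12 lower and 0 higher, beside 72.5% of all genes lower. Plvap did not pass there (adjusted p = 0.56). The sinusoidal list took a share of the summed FPKM of 0.160, 0.724 and 0.804% in Apln+ EC, against 0.659, 0.961 and 0.921% in diaphysis EC. Mrc1, Plvap and Stab1 were named after their values were seen.

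Of 18 tested genes for leukocyte adhesion and chemokines, 10 were lower in Apln+ EC and 1 higher, with a median log2 difference of -1.66. Sele, the E-selectin that slows rolling leukocytes, lies at chr1:164048234-164057677, plus strand and had 1.36, 2.57 and 6.02 FPKM in Apln+ EC, against 72.7, 111 and 82.2 FPKM in diaphysis EC. The groups were far apart and the mean was 26.7-fold lower in Apln+ EC (log2 difference -4.50 ± 0.41 SE, adjusted p = 0.0023). Its relative Selp, P-selectin, had 6.67, 18.9 and 28.3 FPKM in Apln+ EC, against 61.8, 91.5 and 99.2 FPKM in diaphysis EC (log2 difference -2.34 ± 0.49 SE, adjusted p = 0.04). Darc, the older symbol of Ackr1, is a chemokine-binding receptor of venular EC and had 21.1, 40.4 and 85.3 FPKM in Apln+ EC, against 416, 668 and 762 FPKM in diaphysis EC. Here Apln+ EC replicate 3 was the highest of its group and far below the lowest diaphysis EC library (log2 difference -3.80 ± 0.51 SE, adjusted p = 0.0083). Cxcl9, an interferon-induced chemokine that attracts T cells, had 1.181, 2.54 and 8.70 FPKM in Apln+ EC, against 21.4, 21.5 and 24.5 FPKM in diaphysis EC (log2 difference -2.48 ± 0.52 SE, adjusted p = 0.038). The remaining lower members, named after their values were seen, were Icam1, Madcam1, Cxcl10, Cx3cl1 and Il1r1, beside Vcam1 above. Icam1, a ligand of leukocyte integrins, had 24.4, 29.6 and 50.6 FPKM in Apln+ EC, against 85.1, 136 and 129.8 FPKM in diaphysis EC (log2 difference -1.76 ± 0.32 SE, adjusted p = 0.024). Madcam1, an addressin best known from gut venules, had 0, 0.0712 and 0.291 FPKM in Apln+ EC, against 2.41, 3.58 and 6.28 FPKM in diaphysis EC (log2 difference -2.12 ± 0.29 SE, adjusted p = 0.0096). Cxcl10, a relative of Cxcl9, had 15.4, 5.32 and 11.1 FPKM in Apln+ EC, against 26.6, 32.4 and 34.8 FPKM in diaphysis EC (log2 difference -1.57 ± 0.35 SE, adjusted p = 0.048). In all 3 genes every Apln+ EC library was below every diaphysis EC library. Madcam1 was 1 of 2 lower members that passed the filter through the diaphysis EC libraries alone, which fixed their direction. The 1 higher member was Cd34, which also carries selectin ligands on high endothelial venules. Of 6 tested venous genes 3 were lower, which were Sele, Selp and Darc again. The adhesion list count was 11 lower and 4 higher without Apln+ EC replicate 1, 3 to 9 lower without 1 of the other libraries, and 8 lower with pan-endothelial scaling.

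The promoters of these genes were searched for a kappa-B site (GGANTTTCC or its complement GGAAANTCC), the binding motif of NF-kappaB, a factor known to drive adhesion genes in inflamed EC, and for an interferon-regulatory motif (GAAANNGAAA or TTTCNNTTTC), on both strands from 250 bases before to 50 bases after the start. Of the 10 lower adhesion genes 9 had a RefSeq promoter, and 3 of these held the kappa-B motif, which stood in 1.23% of all 27025 promoters of 300 bases; 1 of them, Cxcl10, also held the interferon-regulatory motif, which stood in 3.49%. Of the 3 genes with a kappa-B match, Madcam1 passed the filter on level through the diaphysis EC libraries alone, which fixed its direction. Adhesion genes that were not lower were not compared, so the matches cannot be tied to lower levels. The motifs were chosen with the genes' values known, so the matches are a description of letters and not of bound sites. The 250 bases before the start of these 3 genes are shown because they hold the matches, in capitals, which do not overlap each other (RefSeq, GRCm38.p6, 5′ to 3′ on the gene's own strand: Icam1 chr9:21015690-21015939, plus strand, Madcam1 chr10:79664309-79664558, plus strand and Cxcl10 chr5:92348890-92349139, minus strand).
Icam1: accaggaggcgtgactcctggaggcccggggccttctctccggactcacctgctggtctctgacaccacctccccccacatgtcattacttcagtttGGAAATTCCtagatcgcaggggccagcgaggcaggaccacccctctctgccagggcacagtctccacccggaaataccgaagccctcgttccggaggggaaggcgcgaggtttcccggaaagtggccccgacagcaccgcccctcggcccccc
Madcam1: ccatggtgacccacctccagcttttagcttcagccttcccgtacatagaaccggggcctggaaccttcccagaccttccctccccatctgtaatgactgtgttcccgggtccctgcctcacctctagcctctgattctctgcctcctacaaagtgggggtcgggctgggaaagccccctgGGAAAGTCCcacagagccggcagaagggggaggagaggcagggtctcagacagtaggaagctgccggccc
Cxcl10: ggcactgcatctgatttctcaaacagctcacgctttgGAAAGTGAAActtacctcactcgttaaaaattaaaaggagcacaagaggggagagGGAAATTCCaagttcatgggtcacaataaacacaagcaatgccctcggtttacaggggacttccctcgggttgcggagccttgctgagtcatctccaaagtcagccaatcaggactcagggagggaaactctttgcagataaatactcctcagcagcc
The kappa-B match began 153 bases before the start in Icam1, 70 in Madcam1 and 158 in Cxcl10, where the interferon-regulatory match lies farther from the start.

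Several of the 15 largest decreases were of genes with very low levels in Apln+ EC. Cd209a, a lectin gene of dendritic cells, had 0.622, 0.545 and 0.695 FPKM in Apln+ EC, against 104, 101 and 106 FPKM in diaphysis EC, a mean 167-fold lower (log2 difference -6.01 ± 0.13 SE, adjusted p = 2.2e-05). Rgs4, which ends signals of G protein-coupled receptors, had 1.32, 3.16 and 8.82 FPKM in Apln+ EC, against 193, 290.1 and 247 FPKM in diaphysis EC, a mean 54.9-fold lower (log2 difference -5.72 ± 0.51 SE, adjusted p = 0.0021). In both genes the groups were separated by a wide gap, which leaving out Apln+ EC replicate 1 did not close (Rgs4 log2 difference -5.24 ± 0.35 SE, adjusted p = 0.0001). Cfd, the complement factor D that fat cells secrete as adipsin, had 1.29, 1.20 and 0.894 FPKM in Apln+ EC, against 97.0, 83.7 and 138 FPKM in diaphysis EC (log2 difference -5.63 ± 0.22 SE, adjusted p = 0.00015). Rarres2, the precursor of the chemoattractant chemerin, had 1.30, 5.71 and 9.18 FPKM in Apln+ EC, against 142, 133 and 172 FPKM in diaphysis EC (log2 difference -4.79 ± 0.52 SE, adjusted p = 0.0039). Apoc2, the apolipoprotein that activates lipoprotein lipase, had 0.425, 0.325 and 0.996 FPKM in Apln+ EC, against 43.3, 39.1 and 39.1 FPKM in diaphysis EC (log2 difference -4.74 ± 0.20 SE, adjusted p = 0.00015). These secreted proteins were again low in all Apln+ EC libraries. Ubd, a ubiquitin-like protein induced by cytokines, had 9.49, 33.3 and 82.0 FPKM in Apln+ EC, against 423, 614 and 726 FPKM in diaphysis EC (log2 difference -4.21 ± 0.71 SE, adjusted p = 0.019). Lipg, endothelial lipase, had 0.209, 1.17 and 1.39 FPKM in Apln+ EC, against 13.2, 19.8 and 23.0 FPKM in diaphysis EC (log2 difference -3.38 ± 0.33 SE, adjusted p = 0.0028). Prelp, a leucine-rich matrix proteoglycan, had 1.24, 5.17 and 5.34 FPKM in Apln+ EC, against 44.4, 46.1 and 52.0 FPKM in diaphysis EC (log2 difference -3.45 ± 0.41 SE, adjusted p = 0.0054). In these 3 genes the groups were apart. Stfa1, a stefin of neutrophils, was listed at 0 in all 3 Apln+ EC libraries, against 13.1, 14.3 and 12.7 FPKM in diaphysis EC. Cd209a, Apoc2 and Stfa1 passed the filter on level through the diaphysis EC libraries alone. That filter fixed their direction, so their calls are no support for it. Klk1, Sele, Clca1, Darc and Crygn were also among the 15, with log2 differences from -4.59 to -3.53.

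Of 15 tested fatty acid uptake genes 3 were lower in Apln+ EC and 1 higher, with a median log2 difference of -0.53. Pparg, the nuclear receptor that drives lipid uptake genes, lies at chr6:115360951-115490399, plus strand and had 10.7, 35.3 and 58.0 FPKM in Apln+ EC, against 139, 170.4 and 201 FPKM in diaphysis EC (log2 difference -2.53 ± 0.57 SE, adjusted p = 0.048). Lpl, lipoprotein lipase, had 7.34, 9.78 and 19.1 FPKM in Apln+ EC, against 54.9, 59.3 and 53.8 FPKM in diaphysis EC (log2 difference -2.23 ± 0.32 SE, adjusted p = 0.011). Slc27a1, a fatty acid transporter, had 6.89, 3.80 and 4.06 FPKM in Apln+ EC, against 14.7, 13.6 and 16.2 FPKM in diaphysis EC (log2 difference -1.46 ± 0.23 SE, adjusted p = 0.014). All 3 were lower in every Apln+ EC library than in any diaphysis EC library, and the 1 higher gene was Rbp7. Fabp4, the fatty acid binding protein, had 168, 646 and 1366 FPKM in Apln+ EC, against 3596, 3371 and 6172 FPKM in diaphysis EC, without overlap, but did not pass with 6 libraries (log2 difference -2.99 ± 0.74 SE, adjusted p = 0.067), and without Apln+ EC replicate 1 it was lower (log2 difference -2.16 ± 0.39 SE, adjusted p = 0.0058). It was named after its values were seen. Among 17 tested niche factors, 4 were lower, which were Cxcl12, Vcam1, Csf1 and Il7, and 1 was higher, which was Ptn (median log2 difference -0.25). Cxcl12, the chemokine that keeps blood stem cells in marrow, had 15.2, 45.9 and 59.5 FPKM in Apln+ EC, against 284, 258 and 301 FPKM in diaphysis EC, a mean 6.998-fold lower in Apln+ EC (log2 difference -2.98 ± 0.48 SE, adjusted p = 0.016). Csf1, the growth factor of macrophages, had 4.59, 4.65 and 5.76 FPKM in Apln+ EC, against 9.22, 10.6 and 9.54 FPKM in diaphysis EC (log2 difference -0.85 ± 0.15 SE, adjusted p = 0.024). Il7, the growth factor of lymphocyte precursors, had 0.480, 0.490 and 0.459 FPKM in Apln+ EC, against 1.30, 1.70 and 2.22 FPKM in diaphysis EC (log2 difference -0.88 ± 0.17 SE, adjusted p = 0.03). Both were lower in every Apln+ EC library, at low levels. Il7 passed the filter through the diaphysis EC libraries alone, so its direction was fixed by that filter. Kitl, the stem cell factor, had 2.06, 7.501 and 6.85 FPKM in Apln+ EC, against 6.57, 5.79 and 5.68 FPKM in diaphysis EC, with overlap (log2 difference -0.25 ± 0.40 SE, adjusted p = 0.79). Bmp6, a bone morphogenetic protein that signals iron load from sinusoidal EC in the liver, had 1.04, 2.81 and 3.68 FPKM in Apln+ EC, against 10.7, 16.0 and 12.7 FPKM in diaphysis EC (log2 difference -2.07 ± 0.34 SE, adjusted p = 0.016) and was with Grem1 one of 2 lower genes among 20 tested of the BMP and TGF-beta pathway. Without 1 of the libraries other than Apln+ EC replicate 1, 0 to 5 fatty acid uptake and 1 to 3 niche genes were lower. The counts without Apln+ EC replicate 1 were 4 lower and 5 higher fatty acid uptake genes, 6 lower and 6 higher niche genes, and 5 lower and 8 higher BMP and TGF-beta genes. Among all genes tested 16.4% were lower and 17.1% higher there. With pan-endothelial scaling of 6 libraries 3 fatty acid uptake genes and 1 niche gene, Cxcl12, were lower.

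Markers of other cells moved with the groups, and for each of these lists fewer cells of a type and less RNA per cell cannot be told apart in bulk samples. Of 10 tested genes of perivascular stromal cells, the reticular cells around sinusoids, 7 were lower in Apln+ EC and 0 higher (median log2 difference -1.25), and the 11 listed genes took 0.00527, 0.0187 and 0.0226% in Apln+ EC, against 0.0979, 0.108 and 0.0970% in diaphysis EC, as a share of the summed FPKM. Lepr, the leptin receptor that defines these cells, lies at chr4:101717404-101815352, plus strand and had 1.16, 1.61 and 2.44 FPKM in Apln+ EC, against 26.1, 30.8 and 18.8 FPKM in diaphysis EC. Adipoq, the fat hormone adiponectin, had 4.30, 19.9 and 22.3 FPKM in Apln+ EC, against 98.9, 116 and 112 FPKM in diaphysis EC. Both separated the groups without overlap (Lepr log2 difference -3.26 ± 0.26 SE, adjusted p = 0.0015, and Adipoq log2 difference -2.997 ± 0.56 SE, adjusted p = 0.027). Pdgfrb, a growth factor receptor of mural and stromal cells, had 0.626, 1.25 and 1.26 FPKM in Apln+ EC, against 4.04, 4.35 and 3.16 FPKM in diaphysis EC (log2 difference -1.25 ± 0.20 SE, adjusted p = 0.016). Mme, the surface peptidase CD10, had 0.405, 0.691 and 1.09 FPKM in Apln+ EC, against 3.05, 3.35 and 2.76 FPKM in diaphysis EC (log2 difference -1.25 ± 0.19 SE, adjusted p = 0.014). Grem1, an inhibitor of bone morphogenetic proteins, had 0.223, 0.779 and 0.597 FPKM in Apln+ EC, against 2.12, 1.46 and 2.15 FPKM in diaphysis EC (log2 difference -0.93 ± 0.20 SE, adjusted p = 0.043). Cxcl12 and Lpl, counted above with the niche and lipid genes, were the remaining 2 of the 7, and the part of stromal RNA in them was not tested. All of these were lower in every Apln+ EC library than in any diaphysis EC library. Grem1 passed the filter on level through the diaphysis EC libraries alone, which fixed its direction. The stromal count was 7 without Apln+ EC replicate 1, 1 to 6 without 1 of the other libraries, and 7 with pan-endothelial scaling. Of 6 tested mural genes 1 was lower, Abcc9, a subunit of ATP-sensitive potassium channels, with 1.73, 5.39 and 8.03 FPKM in Apln+ EC, against 15.7, 22.4 and 24.9 FPKM in diaphysis EC (adjusted p = 0.048).

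Cartilage genes were at or near 0 in diaphysis EC and detected in Apln+ EC. Of the 19 listed, 11 were listed at 0 in all diaphysis EC libraries, and in 17 every Apln+ EC library was above every diaphysis EC library. Over all genes tested, the groups did not overlap in 27.8%, counting both directions. That share leaves out genes below the filter on level, as some of the 17 were. The 10 members that were tested passed the filter through the Apln+ EC libraries alone, so that filter fixed their direction, and their calls are no support for it. Col2a1, the collagen that defines cartilage, lies at chr15:97975602-98004695, minus strand and had 10.7, 16.3 and 78.8 FPKM in Apln+ EC and was listed at 0 in all 3 diaphysis EC libraries. Apln+ EC replicate 3 held far more than the other 2 libraries of its group, all of which were above 0. Chad, chondroadherin of the cartilage matrix, had 12.2, 5.35 and 39.9 FPKM in Apln+ EC, against 0.0616, 0.313 and 0 FPKM in diaphysis EC. Lect1, the older symbol of Cnmd, encodes chondromodulin, an inhibitor of vessel growth in cartilage, and had 5.51, 9.54 and 40.0 FPKM in Apln+ EC, against 0.0562, 0 and 0.0504 FPKM in diaphysis EC. Matn3, a matrilin of the growth plate, had 1.75, 6.60 and 10.9 FPKM in Apln+ EC and was listed at 0 in all 3 diaphysis EC libraries. All 3 were highest in Apln+ EC replicate 3 and at or near 0 in diaphysis EC. Col9a3 and 3110079O15Rik, the older symbol of Snorc, had their highest level in the same library, with 2.77, 4.43 and 22.5 FPKM and 4.85, 3.94 and 28.6 FPKM in Apln+ EC, and Col10a1, the collagen of hypertrophic cartilage, had 1.60, 3.16 and 7.78 FPKM in Apln+ EC and was listed at 0 in all 3 diaphysis EC libraries. As a share of the summed FPKM, the list took 0.00871, 0.0129 and 0.0638% in Apln+ EC, against 0.000210, 0.000362 and 0.000219% in diaphysis EC. At an adjusted p below 0.05, 7 of the 10 were called with 6 libraries and a pseudocount of 1 FPKM, 10 with a pseudocount of 0.1 FPKM and 0 with a pseudocount of 5 FPKM. With the pseudocount of 1 FPKM, 10 were called without Apln+ EC replicate 1, 2 without Apln+ EC replicate 2, 9 without Apln+ EC replicate 3 and 0 without any 1 of the diaphysis EC libraries. The part of cartilage cells or their RNA in the sort was not tested.

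Of 9 tested osteoblast and osteocyte genes 4 were higher in Apln+ EC and 1 lower. Col1a1, Bglap and Bglap2, 3 of the 4, passed the filter through the Apln+ EC libraries alone, so their direction was fixed by it. Col1a1, the main collagen of bone, had 15.6, 8.47 and 11.3 FPKM in Apln+ EC, against 0.552, 0.321 and 0.198 FPKM in diaphysis EC (log2 difference 3.21 ± 0.24 SE, adjusted p = 0.0013). Its partner chain Col1a2 had 19.3, 11.8 and 17.7 FPKM in Apln+ EC, against 5.42, 5.75 and 5.94 FPKM in diaphysis EC (log2 difference 1.34 ± 0.20 SE, adjusted p = 0.014). Bglap, osteocalcin, had 17.7, 7.52 and 29.5 FPKM in Apln+ EC, against 0.502, 0 and 0 FPKM in diaphysis EC. Its near-identical neighbour Bglap2 had 6.16, 5.15 and 33.9 FPKM in Apln+ EC, against 0, 0 and 0.197 FPKM in diaphysis EC. Counting could split reads between this pair, so their single values are uncertain. In all 4 the Apln+ EC libraries were above the diaphysis EC libraries. Runx2, the transcription factor that starts bone formation, was lower, with 2.79, 0.903 and 0.992 FPKM in Apln+ EC, against 5.26, 5.88 and 5.68 FPKM in diaphysis EC (log2 difference -1.44 ± 0.29 SE, adjusted p = 0.033). The later bone cell genes Dmp1, Sost, Phex and Mepe did not pass the filter on level. Without Apln+ EC replicate 1, 7 were higher and 2 lower, and without 1 of the other libraries 2 to 4 were higher. Osteoclast (4 tested) and fibroblast and tendon genes (6 tested) gave 0 calls with 6 libraries, and 0 of 2 tested skeletal muscle genes passed. Of 4 tested Schwann and nerve genes Ncmap, a myelin protein gene named after its values were seen, was higher, with 4.68, 2.54 and 2.501 FPKM in Apln+ EC, against 0, 0 and 0.125 FPKM in diaphysis EC (log2 difference 1.99 ± 0.23 SE, adjusted p = 0.0044). It too passed the filter through the Apln+ EC libraries alone, which fixed its direction.

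**Figure D4:**
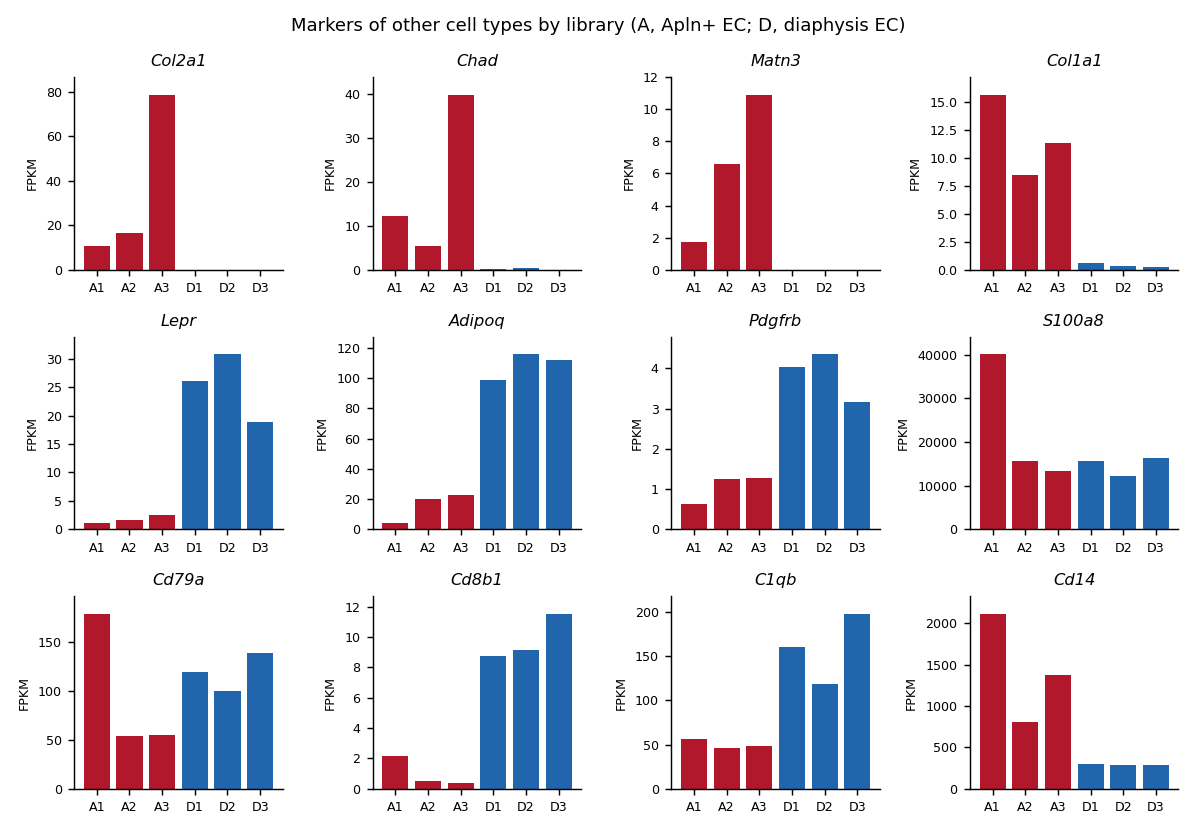
FPKM in each library (A1 to A3, Apln+ EC in red, left; D1 to D3, diaphysis EC in blue, right; bars start at 0) of 12 markers of cells other than endothelium. The cartilage and bone genes Col2a1, Chad, Matn3 and Col1a1 are higher in Apln+ EC, the stromal genes Lepr, Adipoq and Pdgfrb lower, and S100a8 peaks in A1 at 40136 FPKM.

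Some monocyte, macrophage and T cell genes were lower in Apln+ EC, as were 2 genes of antigen presentation, which no list covers. The MHC class II gene H2-Eb1 had 145, 66.6 and 49.4 FPKM in Apln+ EC, against 803, 629 and 899 FPKM in diaphysis EC (log2 difference -3.28 ± 0.40 SE, adjusted p = 0.0059). Cd74, the invariant chain that escorts class II molecules, had 876, 373 and 371 FPKM in Apln+ EC, against 3303, 2877 and 3535 FPKM in diaphysis EC (log2 difference -2.70 ± 0.37 SE, adjusted p = 0.0091). Both, named after their values were seen, were higher in every diaphysis EC library than in any Apln+ EC library. Of 13 tested monocyte and macrophage genes 6 were lower and 2 higher (median log2 difference -1.14), and the 15 listed took 3.48, 1.68 and 1.29% in Apln+ EC, against 2.85, 2.42 and 2.32% in diaphysis EC, as a share of the summed FPKM. The complement gene C1qb, made by macrophages, had 56.1, 45.7 and 48.7 FPKM in Apln+ EC, against 160.5, 118 and 198 FPKM in diaphysis EC (log2 difference -1.61 ± 0.22 SE, adjusted p = 0.0088). The lysosomal marker Cd68 had 108, 60.3 and 54.4 FPKM in Apln+ EC, against 204, 189 and 212 FPKM in diaphysis EC (log2 difference -1.50 ± 0.27 SE, adjusted p = 0.025). Mpeg1, a pore-forming protein of macrophages, had 8.95, 4.31 and 2.26 FPKM in Apln+ EC, against 18.7, 17.3 and 24.2 FPKM in diaphysis EC (log2 difference -1.91 ± 0.40 SE, adjusted p = 0.04). All 3 were lower in every Apln+ EC library, and C1qa, C1qc and Mertk were the other lower genes. The higher genes were Cd14 and Timd4, the latter passing the filter through the Apln+ EC libraries alone, which fixed its direction. Cd14, the lipopolysaccharide co-receptor that neutrophils also express, had 2117, 805 and 1381 FPKM in Apln+ EC, against 298, 293 and 292 FPKM in diaphysis EC (log2 difference 2.17 ± 0.35 SE, adjusted p = 0.016). Its lowest Apln+ EC library was above every diaphysis EC library, and the 3 diaphysis EC values were nearly equal. Of 13 tested T and NK genes 3 were lower, among them Cd8b1 with 2.14, 0.499 and 0.364 FPKM in Apln+ EC, against 8.76, 9.15 and 11.5 FPKM in diaphysis EC (log2 difference -2.53 ± 0.34 SE, adjusted p = 0.0082). Cd4, the co-receptor of helper T cells that some macrophages also carry, had 0.818, 0.501 and 0.435 FPKM in Apln+ EC, against 5.08, 9.41 and 6.13 FPKM in diaphysis EC (log2 difference -2.28 ± 0.24 SE, adjusted p = 0.0035). Cd8a was the other. Cd4 and Cd8a passed the filter through the diaphysis EC libraries alone, so their direction was fixed by it. Without Apln+ EC replicate 1, 11 monocyte and macrophage, 8 T and NK, 8 of 12 B lymphoid and 9 of 12 pan-leukocyte genes were lower, against 0 B lymphoid and 0 pan-leukocyte genes with 6 libraries. Among all genes tested 16.4% were lower without Apln+ EC replicate 1. Without 1 of the other libraries 0 to 3 monocyte and macrophage and 2 to 3 T and NK genes were lower, and with pan-endothelial scaling 0 monocyte and macrophage genes were.

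Other blood lists gave at most 2 calls each with 6 libraries. Neutrophil (18 tested), erythroid (14), megakaryocyte and platelet (6) and eosinophil, basophil and mast cell genes (11) gave 0, with 2467 of all genes at an unadjusted p below 0.05. Hba-a1, a haemoglobin gene of red cells, had 11515, 6663 and 20867 FPKM in Apln+ EC, against 12595, 6483 and 9439 FPKM in diaphysis EC, with overlap. S100a8, the calgranulin of neutrophils, had 40136, 15605 and 13391 FPKM in Apln+ EC, against 15737, 12230.0 and 16368 FPKM in diaphysis EC (log2 difference 0.47 ± 0.49 SE, adjusted p = 0.66). Pf4, platelet factor 4, had 11.5, 14.8 and 11.3 FPKM in Apln+ EC, against 16.8, 145 and 245 FPKM in diaphysis EC. Diaphysis EC replicate 1 was close to the Apln+ EC libraries and the other 2 were far higher, and Pf4 did not pass (log2 difference -2.68 ± 0.92 SE, adjusted p = 0.16). Of 7 tested plasma cell genes Sdc1, syndecan 1, was lower, with 5.47, 7.003 and 4.79 FPKM in Apln+ EC, against 13.1, 11.5 and 13.8 FPKM in diaphysis EC (log2 difference -1.04 ± 0.17 SE, adjusted p = 0.019). In the same list Prdm1, the repressor that drives plasma cells, was higher, with 2.86, 3.51 and 3.48 FPKM in Apln+ EC, against 1.41, 1.36 and 1.51 FPKM in diaphysis EC (log2 difference 0.82 ± 0.14 SE, adjusted p = 0.022). Both separated the groups. Among plasma cell genes 5 were lower and 1 higher without Apln+ EC replicate 1, and with pan-endothelial scaling neither Sdc1 nor Prdm1 passed (adjusted p = 0.25 and 0.86). Of 11 tested stem and progenitor genes Mycn was higher, with 2.64, 7.03 and 6.83 FPKM in Apln+ EC, against 0.314, 0.453 and 0.508 FPKM in diaphysis EC (log2 difference 2.105 ± 0.32 SE, adjusted p = 0.014), and was named after its values were seen. Mycn passed the filter through the Apln+ EC libraries alone, so its direction was fixed by that filter. Of the stem and progenitor list, 3 were higher and 4 lower without Apln+ EC replicate 1, beside 17.1% and 16.4% of all genes tested.

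Of 20 tested interferon response genes 5 were lower in Apln+ EC and 1 higher (median log2 difference -0.59). Ifi27l2a, an interferon-induced mitochondrial protein gene, had 84.9, 67.6 and 56.8 FPKM in Apln+ EC, against 269, 234 and 280.5 FPKM in diaphysis EC (log2 difference -1.91 ± 0.19 SE, adjusted p = 0.0032). Bst2, the tetherin that holds back budding viruses, had 64.9, 126 and 173 FPKM in Apln+ EC, against 336, 387 and 474 FPKM in diaphysis EC (log2 difference -1.81 ± 0.37 SE, adjusted p = 0.035). Irf7, a master factor of interferon genes, had 28.7, 19.8 and 27.1 FPKM in Apln+ EC, against 49.5, 62.1 and 52.1 FPKM in diaphysis EC (log2 difference -1.10 ± 0.19 SE, adjusted p = 0.021). The groups were apart in each. Irf1 and Oas1a were the other lower genes, and Rsad2, the antiviral viperin, was higher, with 111, 86.2 and 117 FPKM in Apln+ EC, against 60.2, 56.8 and 56.9 FPKM in diaphysis EC (log2 difference 0.83 ± 0.16 SE, adjusted p = 0.032). Of 17 tested immediate early and dissociation stress genes 3 were lower, which were Fos, Fosb and Jun (median log2 difference -0.57). Fos had 712, 777 and 1101 FPKM in Apln+ EC, against 1741, 2024 and 2211 FPKM in diaphysis EC (log2 difference -1.22 ± 0.24 SE, adjusted p = 0.032). These genes also respond to tissue digestion, and the part of handling in their difference was not tested. Of 17 tested cholesterol synthesis genes 4 were higher, among them Hmgcs1, Mvk and Insig1, and 0 lower (median log2 difference 0.62). Hmgcs1, an early enzyme of the pathway, had 28.0, 29.2 and 21.3 FPKM in Apln+ EC, against 12.3, 13.3 and 8.798 FPKM in diaphysis EC (log2 difference 1.13 ± 0.21 SE, adjusted p = 0.027). Insig1, which holds its regulator in the endoplasmic reticulum, had 25.4, 26.8 and 25.0 FPKM in Apln+ EC, against 14.3, 13.5 and 11.3 FPKM in diaphysis EC (log2 difference 0.94 ± 0.14 SE, adjusted p = 0.014). Both genes separated the groups. With pan-endothelial scaling 0 cholesterol genes were called. The list median was 0.21, or -0.48 without Apln+ EC replicate 1, beside -0.32 and -0.84 over all genes tested. Cell cycle (30 tested) and glycolysis and hypoxia genes (19 tested) gave 0 calls, with medians of 0.00044 and 0.04, and without Apln+ EC replicate 1 gave 1 higher and 2 lower, and 1 higher and 1 lower. When Apln+ EC replicate 1 was left out, 7 interferon genes were lower and 2 higher, 10 immediate early genes were lower and 1 higher, and 8 cholesterol genes were higher and 1 lower. With pan-endothelial scaling of 6 libraries 2 interferon and 0 immediate early genes were lower. Without 1 of the other libraries 1 to 4 interferon, 0 to 3 immediate early and 0 to 2 cholesterol genes were called.

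**Figure D5:**
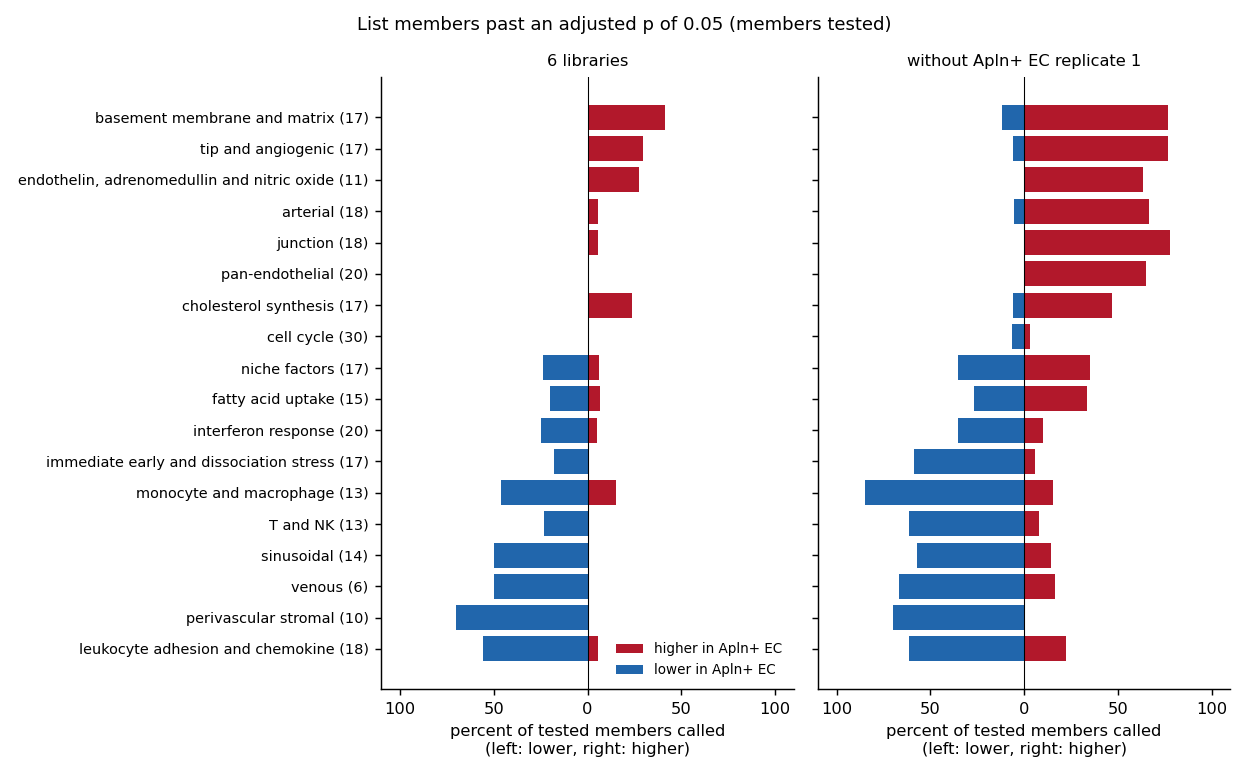
Percent of the tested members of 18 lists (number tested in parentheses) called higher (right, red) or lower (left, blue) in Apln+ EC at an adjusted p below 0.05, with 6 libraries in the left panel and without Apln+ EC replicate 1 in the right panel. With 6 libraries 7 of 17 basement membrane genes were higher and 7 of 14 sinusoidal and 10 of 18 adhesion genes lower. Of all genes tested, 2.84% were higher and 4.64% lower. Without the library 13 of 20 pan-endothelial, 12 of 18 arterial and 14 of 18 junction genes were higher, beside 17.1% of all genes. Of these members, 1 basement membrane, 1 junction and 2 adhesion genes passed the filter on level through 1 group alone, which fixed their direction.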

How the data were processed

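RNA of sorted GFP+ cells was measured by RNA sequencing in 3 Apln+ EC and 3 diaphysis EC libraries. Per the submitters' processing notes the tools were bcl2fastq 2.19.1.403, TopHat2 2.1.1, HTSeq 0.6.1 and DESeq2 1.18.1 with build mm10, and per the labels' protocols cDNA came from a kit that does not mark strand. The authors deposited FPKM values per gene, in 4 tables, each normalized separately; all columns of the table used here matched the labels (0 unmapped). Of 38926 genes, 27 with date-like names were left out. FPKM per gene were whole multiples of 1 read within 0.005 in all 38899 others, so read numbers were recovered for an alternative test and for depth (8747006 to 10744113 reads; intervals were not computed, and depth covers counting error only).

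Values were tested as log2(FPKM + 1) with limma 3.58.1 (empirical Bayes with a trend) in R 4.3.3, for the 11889 genes with 1 FPKM or more in at least 3 of 6 libraries, with Benjamini-Hochberg adjustment and a threshold of 0.05. Every p in the text comes from this test across all genes, with 3 libraries per group unless stated. Where stated, Apln+ EC replicate 1 was left out, the values were first divided by the pan-endothelial level, or both. Fold changes of means are of FPKM as deposited. Tables were handled with pandas 2.3.3 and figures drawn with matplotlib 3.10.9. The fit was tested on simulated data with 200 changed genes. With 6 libraries it found 35% of log2 changes of 1 and 76% of log2 changes of 2, with 4.31% false calls. Without Apln+ EC replicate 1 it found 76% and 97%, with 6.99% false. Noise was drawn independently per gene, with the same spread in both groups, and only genes with a mean log2 level above 3 were changed. Shifts of many genes together in 1 library were not simulated, so these rates may not hold for the real libraries.

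The members and the 44 gene lists (605 members, 13 found under an older symbol, 489 tested) were chosen with earlier results of these data known. Genes were named by a rule: those that define the sorted or contaminating cells, then 15 per direction with the biggest log2 difference (called both with and without Apln+ EC replicate 1, values of the groups apart, at least 5 FPKM on average in the higher group, no predicted genes), then from every list its 6 most changed called genes, or its 2 most abundant where fewer than 2 were called. Of 147 named genes 51 overlap another gene, whose reads cannot be told apart without strand. Coordinates are GENCODE annotation of GRCm38, the assembly also called mm10. Alternatives were other pseudocounts, filters, scalings, TPM, voom on recovered reads, a replicate block and leaving out each library. Some items are not reported here.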

Additional observations from a re-analysis of the deposited data

How the results depend on the processing

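With 6 libraries, 338 genes were higher and 552 lower. Requiring a mean of at least 5 FPKM gave 184 higher and 261 lower genes, and scaling to pan-endothelial genes gave 151 and 306; the cause was not tested, except that 7448 genes were tested with the stricter filter. Leaving out 1 library gave 104 to 2034 higher and 188 to 1955 lower genes, with the highest of each without Apln+ EC replicate 1. Pan-endothelial scaling without Apln+ EC replicate 1, chosen after the data were seen, gave 465 higher and 8623 lower genes, as that scaling then moved the median of all genes to -0.84 on the log2 scale. Pseudocounts of 0.1 and 5, no filter, median-of-ratios scaling, no trend, TPM and voom kept both counts within 1.5 times, at 242 to 334 higher and 473 to 673 lower genes. Whether replicate numbers pair the samples could not be decided. The deviations of same-numbered libraries from their group means correlated at 0.332, -0.063 and 0.297. Replicates 1 and 3 correlated best with their own number, and replicate 2 did not. Deviations within a group of 3 are tied to each other, so these values cannot settle it. A fit with the replicate block called 352 higher and 539 lower genes. Of the 98 named genes called with 6 libraries, 0 reversed, 0 lost the call without Apln+ EC replicate 1, 32 lost it with pan-endothelial scaling and 65 without diaphysis EC replicate 3. Of 48 named genes not called, 22 passed without Apln+ EC replicate 1. Depth of 8747006 to 10744113 reads leaves genes under 1 FPKM in most libraries untested.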

Other observations

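Some genes were present in 1 group and nearly absent from the other. Counting genes with at least 5 FPKM in all libraries of 1 group and below 1 FPKM in all of the other, a rule set after the values were seen, 32 were high in Apln+ EC and 13 in diaphysis EC. Of the 32, 13 were annotated as pseudogenes and 14 as protein coding, and of the 13, 12 as protein coding. In 27 of the 32, all 3 libraries of Esm1+ EC, from tamoxifen-treated Esm1-CreER R26-mTmG mice, were above all 18 libraries of the Cdh5-mTnG groups. Those tables were normalized separately and the difference was not tested. Among these 27 were Rps3a3, Cd1d2 and Hist1h2al, which also stand among the 15 largest increases. The part of mouse line in these differences was not tested. Ifi202b, an interferon-inducible gene, averaged 14.7 ± 7.03 FPKM in Apln+ EC and was listed at 0 in all diaphysis EC libraries (SD, n = 3 each), and averaged 2.67 FPKM in Esm1+ EC. Ifi44l, another interferon-induced gene, averaged 10.5 ± 0.982 FPKM in Apln+ EC, was listed at 0 in all diaphysis EC libraries, and averaged 6.33 FPKM in Esm1+ EC. Fgf23, the phosphate-lowering hormone of bone, averaged 0.162 ± 0.115 FPKM in Apln+ EC and 8.26 ± 2.80 FPKM in diaphysis EC.

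Sex-linked genes differed between the groups, and the labels used here give no sex. Xist, the RNA of the inactive X chromosome, had 0.00740, 0 and 0.0115 FPKM in Apln+ EC, against 1.83, 1.90 and 1.29 FPKM in diaphysis EC, and it was lower in Apln+ EC (log2 difference -1.40 ± 0.15 SE, adjusted p = 0.0037). Ddx3y, a gene of the Y chromosome, had 22.7, 17.2 and 19.1 FPKM in Apln+ EC, against 4.13, 4.97 and 4.97 FPKM in diaphysis EC, and it was higher in Apln+ EC (log2 difference 1.86 ± 0.16 SE, adjusted p = 0.0021). Eif2s3y and Uty, 2 further Y-linked genes, were also higher. Xist passed the filter through the diaphysis EC libraries alone and Uty through the Apln+ EC libraries alone, which fixed their directions. The count of 3 higher sex-linked genes was 0 with pan-endothelial scaling (adjusted p = 0.34 for Ddx3y, 0.79 for Eif2s3y and 0.85 for Uty), 3 without Apln+ EC replicate 1, and 1 with the replicate block or without any 1 of the other 5 libraries. Xist stayed lower with that scaling (log2 difference -1.56 ± 0.24 SE, adjusted p = 0.013). With the scaling and without Apln+ EC replicate 1, Xist was lower (adjusted p = 0.00017) and Ddx3y higher (adjusted p = 0.0064). Eif2s3y and Uty did not pass there. Xist and Y-linked RNA were both detected in diaphysis EC, and the part of sex in the other differences was not tested. Of 4 tested oestrogen-responsive genes, 4 tested Hox and limb position genes and 12 tested mitochondrially encoded genes, 0 were called with 6 libraries.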
